A study of Mus musculus with 4 samples.

Results

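The cytosolic ribosomal protein genes were followed in natural killer (NK) cells of mouse bone marrow. Members were taken by symbol: every gene of the deposited tables whose symbol is Rpsa, Rplp0 to Rplp2, or Rpl or Rps with a number and at most a closing a or x. The rule found 76 genes of 37310, 45 of the large subunit and 31 of the small subunit, each with 1 row. All 76 were counted often enough to enter the test, among the 13904 genes tested. NK cells, sorted by flow cytometry as CD3e- NK1.1+ CD49b+ cells directly into Trizol, came from C57BL/6 mice aged 6 to 8 weeks. The labels give 2 groups of 2 biological replicates: littermate controls (Ctrl) and mice of genotype Gabpb1l-/-Gabpb2-/- (dKO), which lack the GABPα2β2 tetramer. Libraries were made by Smart-seq2, which amplifies full-length cDNA. How the alleles were made, and whether cells of several animals were pooled, is not given in the sources used here.

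Ribosomal proteins form, with the ribosomal RNAs, the large subunit that joins amino acids and the small subunit that reads the mRNA. Their mRNAs are abundant and mostly start with a run of pyrimidines, the 5′ TOP, through which translation is tuned by mTORC1 and Larp1. GABP is a transcription factor of an ETS-type DNA-binding subunit, Gabpa, and a β subunit that lets pairs of dimers join into a tetramer. It binds DNA at sites around the letters GGAA, which several ribosomal protein promoters carry.

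The promoters of the members were searched for the GABP-type motif CCGGAAG, on both strands (CTTCCGG on the other), in the 300 bases from 250 before to 50 after each start in RefSeq GRCm38.p6. The motif was present in 23 of the 56 members that matched the promoter table (41.1%). It was present in 2683 of all 27025 genes of the table (9.93%), and in 1806 of 9175 tested genes that matched it (19.7%). The windows below run from 100 bases before to 20 after the start, 5′ to 3′ in the gene's direction, with each copy of the motif in capitals. Rps6, Rps7, Rps21 and Rpl38 are shown because they hold the motif and are described below, and Rps27 and Rplp0 because they have a high fold change and the highest level without it. In order, they lie at chr4:86857348-86857467 (minus strand), chr12:28635934-28636053 (minus), chr2:180257279-180257398 (plus), chr11:114668480-114668599 (plus), chr3:90213629-90213748 (minus) and chr5:115559367-115559486 (plus).
Rps6: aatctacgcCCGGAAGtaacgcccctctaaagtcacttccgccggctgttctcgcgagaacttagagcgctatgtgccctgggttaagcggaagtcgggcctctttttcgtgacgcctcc
Rps7: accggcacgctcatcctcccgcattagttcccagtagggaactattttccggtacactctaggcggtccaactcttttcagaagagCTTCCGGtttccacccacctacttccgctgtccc
Rps21: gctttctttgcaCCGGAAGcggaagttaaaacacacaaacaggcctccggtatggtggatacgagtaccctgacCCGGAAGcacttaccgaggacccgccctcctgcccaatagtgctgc
Rpl38: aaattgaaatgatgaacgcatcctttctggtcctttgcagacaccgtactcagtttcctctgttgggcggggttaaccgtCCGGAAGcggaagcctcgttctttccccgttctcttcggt
Rps27: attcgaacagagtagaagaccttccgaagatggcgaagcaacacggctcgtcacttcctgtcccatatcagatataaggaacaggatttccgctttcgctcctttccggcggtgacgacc
Rplp0: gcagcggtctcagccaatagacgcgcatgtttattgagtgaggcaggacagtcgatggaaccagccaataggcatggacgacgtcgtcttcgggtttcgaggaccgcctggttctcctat

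A match is a description of these letters, not a bound site, and the data hold no measure of GABP binding. The 23 members with the motif had a median log2 fold change of 0.41, dKO minus Ctrl, and all 23 values were above 0. The 33 without it had a median of 0.30, with 31 above 0. Over all tested genes that matched the table, the medians were 0.02 with the motif and -0.0043 without it. Members with the motif stood at a lower level, with a median of 95.1 TPM (a level per transcript length) against 237.0 TPM without it. No test was made of these differences.

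The 4 libraries held between 30233870 and 34724516 counts in genes. Gabpb2, the deleted gene, stood at 36.5 and 30.4 CPM (counts scaled to a common library total) in Ctrl and at 2.64 and 2.85 CPM in dKO, a log2 fold change of -3.61. Counts of Gabpb1, summed over its isoforms, were 57.1 and 52.0 CPM in Ctrl against 81.2 and 79.4 CPM in dKO, which does not check the loss of its long form. Xist, the transcript of the inactive X chromosome, was at 178 and 194 CPM in both Ctrl libraries and under 1 CPM in dKO, and the 4 Y-linked genes looked at were counted in the dKO libraries alone. Genotype and the sex of the mice therefore cannot be told apart here. Of 13904 genes, 85 passed an adjusted p of 0.05 in edgeR's quasi-likelihood test (0.611%), 44 higher and 41 lower in dKO. All 12 NK cell markers were detected, with summed levels of 18424 to 18651 CPM in Ctrl against 15312 to 15391 CPM in dKO.

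No ribosomal protein gene passed the test between Ctrl and dKO, against 0.611% of all genes. The lowest adjusted p among the 76 was 0.282 by edgeR, and DESeq2 called 1 member, Rps27. At an unadjusted p of 0.05, 3 members passed (3.95%), against 10.6% of all genes tested. Most point estimates lay on 1 side: 73 of 76 log2 fold changes were above 0, with a median of 0.33, while 51.6% of all tested genes were above 0 with a median of 0.01. The values spanned -0.06 to 1.03.

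The libraries of a group differed from each other more than the groups did. Each gene's log2 CPM was set against its mean over the 4 libraries, and the medians of these deviations over the 76 members were 0.21 (Ctrl 1), -0.51 (Ctrl 2), -0.40 (dKO 1) and 0.69 (dKO 2). The same medians over all tested genes lay between -0.0061 and 0.02. So dKO 2 was high, Ctrl 1 was intermediate, and Ctrl 2 and dKO 1 were low, an order that crosses the groups. All tested genes of 500 to 700 and of 700 to 900 bases had this order of medians too, at a smaller size (values below). The highest of the 4 libraries was dKO 2 in 70 of 76 members, as it was in 24.5% of all genes. The order dKO 2, Ctrl 1, dKO 1, Ctrl 2 held in 34 members, and dKO 2, Ctrl 1, Ctrl 2, dKO 1 in another 25. Within the dKO group, the level in dKO 2 was a median of 2.07 times that in dKO 1, and within Ctrl, the level in Ctrl 1 was 1.63 times that in Ctrl 2.

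**Figure D1:**
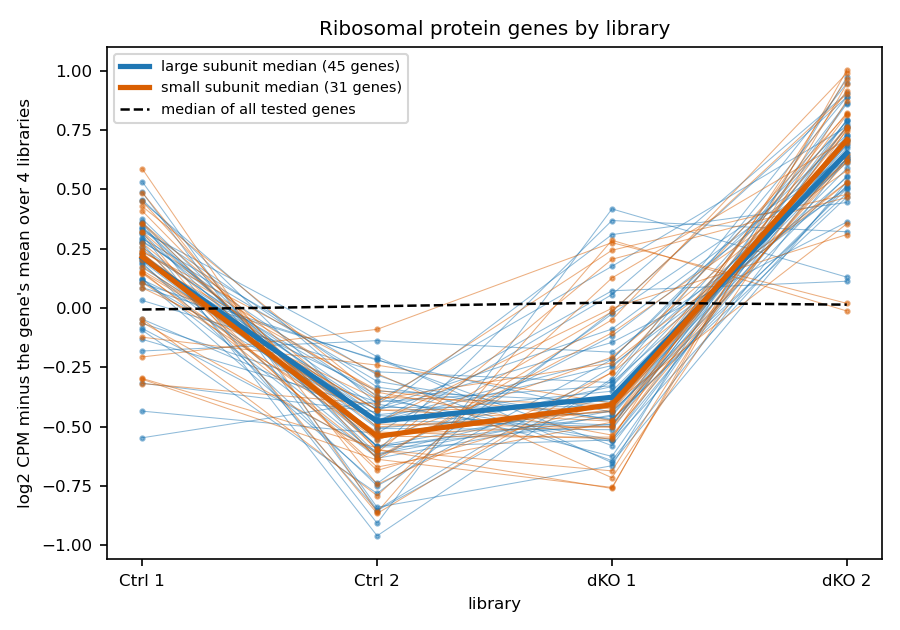
Each thin line is 1 of 76 ribosomal protein genes, with the library on the horizontal axis and log2 CPM minus the gene's mean over the 4 libraries on the vertical axis; thick lines are the medians of the large (45 genes) and small (31 genes) subunit, and the dashed line is the median of all tested genes. Both subunits are highest in dKO 2 and lowest in Ctrl 2 and dKO 1, so the pattern by library crosses the groups.

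The direction of the summary rested on dKO 2, and its size on every library. Without dKO 2, the median log2 fold change of the members was -0.28 and 20 of 76 were above 0. Leaving out Ctrl 2 gave a median of 0.06 with 44 above 0. It was 0.80 with 76 above 0 when Ctrl 1 was left out, and 0.78 with 75 above 0 when dKO 1 was. Both dKO libraries lay above both Ctrl libraries in 12 of 76 members (15.8%), against 21.7% of all tested genes. In none of the 76 were both dKO libraries below both Ctrl libraries, against 19.9% of all genes. In the other 64 members the groups overlapped.

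As a share of each library's gene counts, the 76 genes took 1.68% and 1.17% in the Ctrl libraries against 1.16% and 2.36% in the dKO libraries. The group means were 1.42% ± 0.36 in Ctrl and 1.76% ± 0.85 in dKO (SD, n = 2), and the groups overlapped. In TPM, which counts per length and so raises these short genes, the shares were 3.66%, 2.60%, 2.86% and 5.20% in the same order. With 2 against 2 libraries an exact two-sided permutation test cannot reach a p of 0.05, so none is given for these shares. In bulk RNA, fewer cells with high levels and less RNA per cell cannot be told apart.

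Levels of the 76 genes spanned a wide range, although their proteins are assembled into the same particle. The highest level per length was that of Rplp0, the base of the P stalk that contacts elongation factors, at 5479 and 4615 TPM in Ctrl against 4216 and 7310.0 TPM in dKO. Rpl4, a protein of the peptide exit tunnel, followed with 4014, 3503, 3535 and 5647 TPM. In both genes dKO 2 was the highest library and Ctrl 1 came next, above Ctrl 2 and dKO 1. Next by mean level came Rps2 (2339.8 TPM), Rps3a (2170.0 TPM) and Rps9 (1934 TPM), all of the small subunit. This order holds for RSEM values of the genes alone. RSEM gave most expected counts of Rps6, Rpl15, Rpl12 and Rpl10 to copies, as described below. With copies added and scaled to library totals, Rps6 had 1328, 899, 846 and 1851 CPM in Ctrl 1, Ctrl 2, dKO 1 and dKO 2. Rps2 then had 1098, 745, 807 and 1632 CPM.

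The lowest mean level was that of Rpl39, another protein of the exit tunnel, with 2.61, 1.78, 3.57 and 9.85 TPM. Rpl28 averaged 5.92 TPM, Rpl31 9.82 TPM, Rpl30 9.87 TPM and Rps21 11.5 TPM. Over the large subunit the median level was 224 TPM, and over the small subunit it was 181 TPM. The counts were concentrated in few genes: 5 members held 51.8% of all counts of the 76, and 10 held 73.9%. The fold change was weakly and inversely ranked with the level over the 76 genes (Spearman -0.28, a description over genes that share the same 4 libraries).

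**Figure D2:**
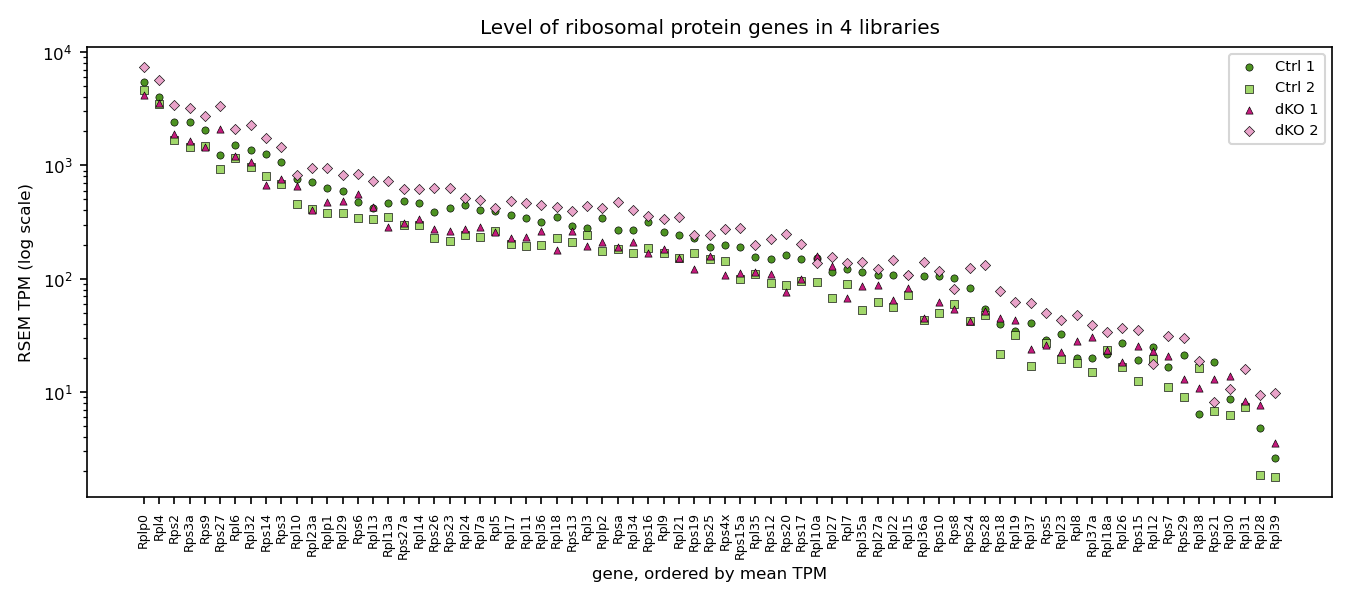
RSEM TPM on a log scale for 75 of the 76 genes in the 4 libraries, ordered by mean level. Levels run from a mean of 4.45 TPM (Rpl39) to 5405 TPM (Rplp0), and dKO 2 (diamonds) is the highest library for most genes. Copies are not included, although they hold most expected counts of Rps6, Rpl15, Rpl12 and Rpl10.

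Among the large subunit, the highest fold changes were those of Rpl8, Rpl38, Rpl39 and Rpl28. Rpl8 (chr15:76904078-76906314, plus strand, GRCm38), a protein near the peptidyl transferase centre, stood at 8.46 and 7.92 CPM in Ctrl against 11.9 and 21.5 CPM in dKO. The dKO libraries both lay above Ctrl, with a log2 fold change of 1.03 ± 0.33 (SE) and an adjusted p of 0.310 by edgeR. Rpl38, known for its part in the translation of Hox mRNAs, had 0.617 and 0.693 CPM in Ctrl against 1.06 and 1.62 CPM in dKO. Its log2 fold change was also 1.03, with an SE of 0.74 at these low counts. For Rpl39 the levels were 1.06 and 0.633 CPM in Ctrl against 1.12 and 2.15 CPM in dKO, so that dKO 1 exceeded Ctrl 1 only narrowly. Rpl28 was measured at 1.09 and 0.994 CPM in Ctrl against 1.71 and 1.89 CPM in dKO, a log2 fold change of 0.79 ± 0.60 (SE). None of the 4 passed the test.

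In the small subunit the highest were Rps27, Rps28, Rps7 and Rps15. Rps27 (chr3:90212522-90213651, minus strand, GRCm38), a small zinc-binding protein, was at 64.4 and 50.8 CPM in Ctrl against 76.6 and 158 CPM in dKO. The groups did not overlap, but dKO 1 lay closer to Ctrl 1 than to dKO 2. Its log2 fold change was 1.02 ± 0.32 (SE), with an adjusted p of 0.282 by edgeR, the smallest of the 76. Rps28 was at 5.11 and 4.16 CPM in Ctrl against 6.22 and 11.8 CPM in dKO. Rps7, one of the ribosomal proteins that bind Mdm2, the inhibitor of p53, stood at 9.43 and 5.60 CPM in Ctrl against 10.6 and 16.0 CPM in dKO. For Rps15, needed for export of the small subunit from the nucleus, values were 2.47 and 2.32 CPM in Ctrl against 3.67 and 4.34 CPM in dKO. These 4 genes, chosen for their high log2 fold changes of 0.74 to 1.02, were separated by group as well. Both dKO libraries also lay above both Ctrl libraries in 21.7% of all tested genes.

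The call for Rps27 depended on the tool. DESeq2 gave it an adjusted p of 0.0276, the only member called there, where 2.92% of all genes with an adjusted p were called. Without a filter on low counts, edgeR called Rps27 (adjusted p 4.5e-05) and Rpl8 (adjusted p 0.0464), where 2.4% of all genes were called. Without dKO 1, edgeR called Rps27 (adjusted p 0.0121), where 0.493% of all genes were called. Without dKO 2 its log2 fold change was 0.41, with an adjusted p of 0.813 by edgeR. A close relative of this gene, listed as Gm9846 and named Rps27rt in GENCODE M21, has an identical coding sequence of 255 bases, so that reads of the pair can be split between them. Gm9846 was given 192, 155, 155 and 394 counts in Ctrl 1, Ctrl 2, dKO 1 and dKO 2, with dKO 2 the highest library in both genes.

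The lowest fold changes were those of Rps19, Rpl7, Rpl10, Rpl5, Rpl12, Rpl15, Rpl18 and Rps21, all between -0.06 and 0.11. Rps19, the gene most often mutated in Diamond-Blackfan anaemia, was at 38.8 and 22.2 CPM in Ctrl against 21.7 and 36.9 CPM in dKO. The spread inside each group was larger than the difference, a log2 fold change of -0.06 ± 0.34 (SE). Rpl7 was at 72.0 and 49.9 CPM in Ctrl against 36.6 and 83.3 CPM in dKO. Rpl18 gave 96.5 and 64.8 CPM in Ctrl against 50.4 and 122 CPM in dKO. In each of these the high library of each group was the same, Ctrl 1 and dKO 2 (Rps21, at 1.59, 0.542, 1.28 and 1.03 CPM, was highest in Ctrl 1 and had dKO 1 above dKO 2).

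Ribosomal proteins with a part outside the ribosome showed the same crossing of libraries. Rpl5 and Rpl11 travel with the 5S RNA and bind Mdm2 when ribosome assembly is disturbed. Rpl5 was at 141 and 88.5 CPM in Ctrl against 80.6 and 154 CPM in dKO. Rpl11 was at 128 and 73.2 CPM in Ctrl against 82.7 and 186 CPM in dKO. Their log2 fold changes were 0.04 ± 0.32 and 0.41 ± 0.38 (SE). Rpl22, whose loss in mice impairs the development of T cells, was at 32.6 and 16.3 CPM in Ctrl against 18.5 and 41.9 CPM in dKO.

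On the small subunit, Rps3, which lines the mRNA entry channel, stood at 1146 and 691 CPM in Ctrl against 722 and 1597 CPM in dKO. Rpsa, also known as the laminin receptor, ranged from 178 CPM in dKO 1 to 510 CPM in dKO 2, with 281 and 182 CPM in Ctrl. Rps14, tied to the anaemia of 5q- syndrome, was at 249 and 148 CPM in Ctrl against 152 and 376 CPM in dKO. In all 3 Ctrl 1 lay between the dKO libraries. Rps27a, made as a fusion with ubiquitin, was at 169 and 93.0 CPM in Ctrl against 92.8 and 230 CPM in dKO.

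The acidic stalk proteins Rplp1 and Rplp2, which recruit the GTPase factors together with Rplp0, had the same order of libraries. Rplp1 was at 99.5 and 57.1 CPM in Ctrl against 64.8 and 160 CPM in dKO. Rplp2 was at 43.8 and 23.0 CPM in Ctrl against 27.1 and 56.3 CPM in dKO. Their log2 fold changes were 0.52 ± 0.41 and 0.32 ± 0.39, against 0.19 ± 0.30 (SE) for Rplp0.

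The 4 members on the X chromosome were Rpl10, Rpl36a, Rpl39 and Rps4x, read here because the groups differ in sex. Rpl10, a late addition to the large subunit, was at 797 and 441 CPM in Ctrl against 395 and 835 CPM in dKO. Rpl36a was at 12.4 and 4.76 CPM in Ctrl against 5.38 and 16.9 CPM in dKO. Rps4x was at 83.3 and 58.3 CPM in Ctrl against 43.0 and 119 CPM in dKO. In these 3 the groups overlapped, with log2 fold changes of -0.01, 0.37 and 0.20. In Rpl39, at the low levels given above, both dKO libraries lay above both Ctrl libraries. Its log2 fold change was 0.95 ± 0.71 (SE). Over all tested genes the groups overlapped in 8126 of 13904.

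**Figure D3:**
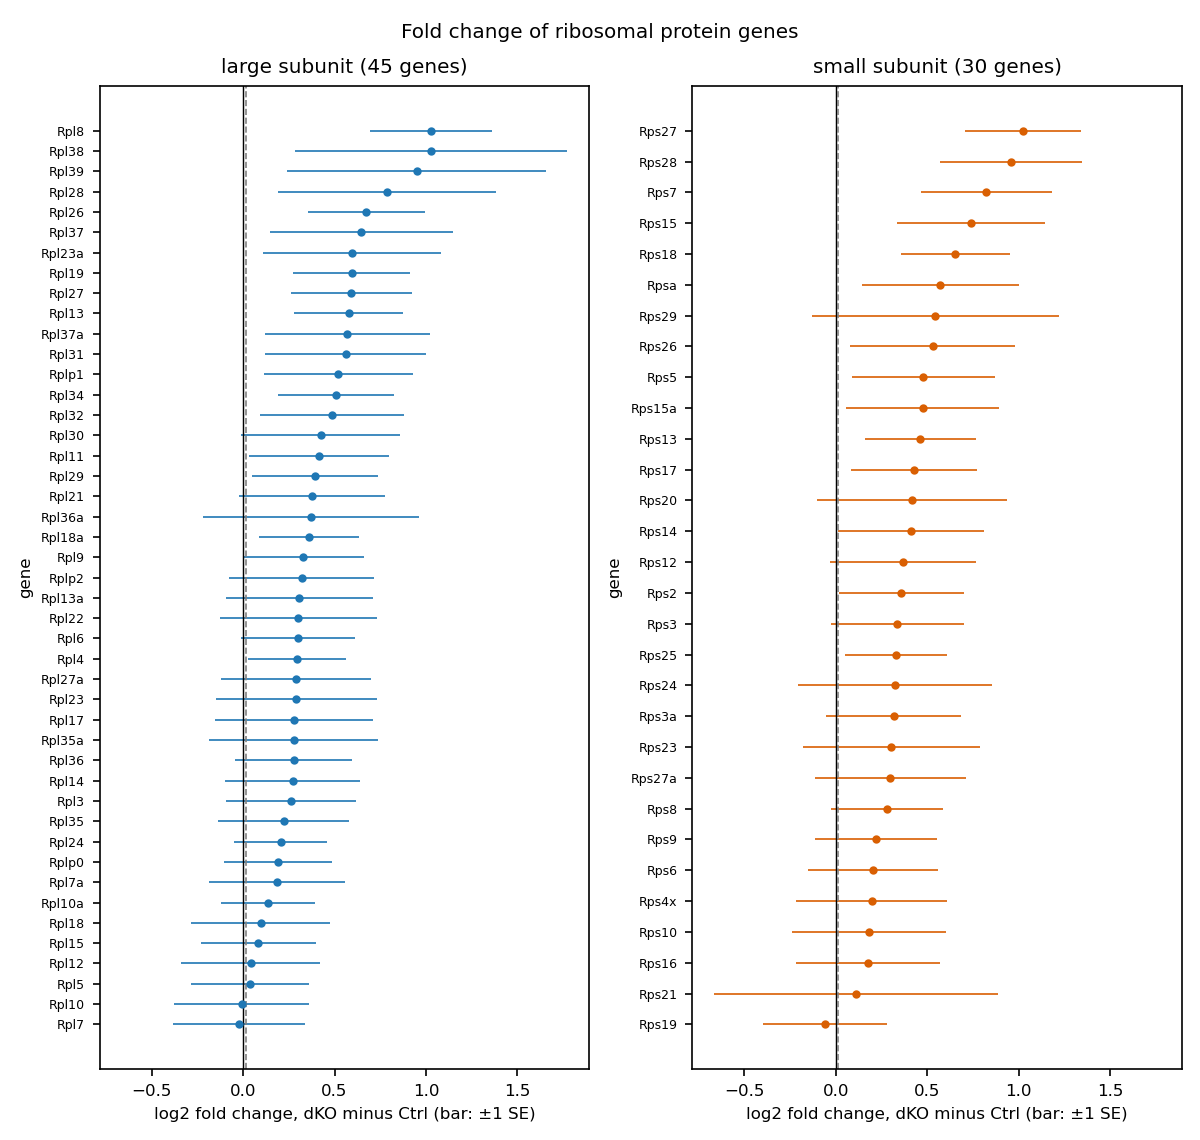
Log2 fold change (dKO minus Ctrl) of 75 of the 76 ribosomal protein genes with its SE as a bar, for the large (45 genes, left) and small (30 of 31 genes, right) subunit, each sorted; the solid line is 0 and the dashed line the median of all tested genes. Most genes lie to the right of 0, from -0.06 (Rps19) to 1.03 (Rpl8), and none passed the test.

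Large and small subunit genes shared the pattern by library. The median log2 fold change was 0.32 over the 45 large subunit genes and 0.36 over the 31 small subunit genes, with 43 and 30 values above 0. The median deviations of the large subunit were 0.21, -0.48, -0.38 and 0.65 in Ctrl 1, Ctrl 2, dKO 1 and dKO 2. Those of the small subunit were 0.22, -0.54, -0.41 and 0.71. In each library the subunits differed by less than the libraries of 1 group did. The difference of the median fold changes, large minus small, was -0.04, and it turned to 0.04 without dKO 2. By share of counts, the large subunit took 1.02%, 0.746%, 0.728% and 1.41% of the libraries, and the small subunit 0.660%, 0.421%, 0.434% and 0.948%.

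Genes that belong to ribosomes but fall outside the symbol rule were read beside the members. Fau, which encodes a ubiquitin-like fusion of Rps30, was at 44.3 and 31.3 CPM in Ctrl against 29.3 and 82.5 CPM in dKO. Gnb2l1, which encodes the scaffold RACK1 on the small subunit, was at 244 and 193 CPM in Ctrl against 168 and 272 CPM in dKO. Neither passed the test. Of the paralogs outside the rule, 5 of 8 were tested and 0 passed, against 0.611% of all genes. Rpl7l1 had the lowest p of them, at 365 and 266 CPM in Ctrl against 220 and 223 CPM in dKO (log2 fold change -0.51, adjusted p 0.372 by edgeR). Rps27l, a p53 target related to Rps27, had a log2 fold change of -0.28, Rpl22l1 0.72, Rpl36al 0.08 and Rps4y2 -0.22. Unlike the Y-linked genes above, Rps4y2 was counted in Ctrl as well, at 4.55 and 3.56 CPM.

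The other genes with a 5′ TOP, mostly translation factors, had list medians in the same order of libraries, while single genes varied. None of 20 passed the test, against 0.611% of all genes, and their median log2 fold change was 0.16. Their median deviations were 0.13, -0.35, -0.25 and 0.37 in Ctrl 1, Ctrl 2, dKO 1 and dKO 2, and dKO 2 was the highest library in 11 of the 20. Eef1a1, the elongation factor that brings aminoacyl-tRNA, was at 10782 and 8098 CPM in Ctrl against 7967 and 15222 CPM in dKO. Tpt1 and Snhg1, those with the smallest p, had log2 fold changes of 0.45 and 0.44.

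The medians of the factors that build ribosomes did not have that order. Of 40 assembly factors 0 passed the test, against 0.611% of all genes. Log2 fold changes were above 0 in 9 of them, against 51.6% of all tested genes. Their median log2 fold change was -0.16, with median deviations of 0.28, -0.10, -0.05 and -0.07. Utp18, of the small subunit processome, was at 10.6 and 6.33 CPM in Ctrl against 16.2 and 16.0 CPM in dKO. Nop2, a methyltransferase of the large subunit rRNA, was at 216 and 164 CPM in Ctrl against 142 and 135 CPM in dKO. Their adjusted p were 0.329 and 0.417 by edgeR.

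RNA polymerase I and its factors, which transcribe rRNA, had a median log2 fold change of 0.02. Of these, 0 of 13 passed the test, against 0.611% of all genes. Polr1b, the second largest subunit of that polymerase, came closest, at 75.98 and 60.6 CPM in Ctrl against 33.5 and 34.3 CPM in dKO (log2 fold change -1.01, adjusted p 0.0790 by edgeR). Taf1c, a subunit of its selectivity factor, had a log2 fold change of 0.54. Among 16 controllers of ribosomal protein output, again 0 passed, against the same 0.611%, and the median was -0.02. Larp1, which holds TOP mRNAs back when mTORC1 is inactive, was at 80.2 and 67.6 CPM in Ctrl against 56.7 and 44.0 CPM in dKO (adjusted p 0.383 by edgeR). Rptor, the mTORC1 scaffold, had a log2 fold change of -0.45. Gabpa, which stood at 81.6 and 80.8 CPM in Ctrl, was at 102 and 98.4 CPM in dKO and did not pass.

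**Figure D4:**
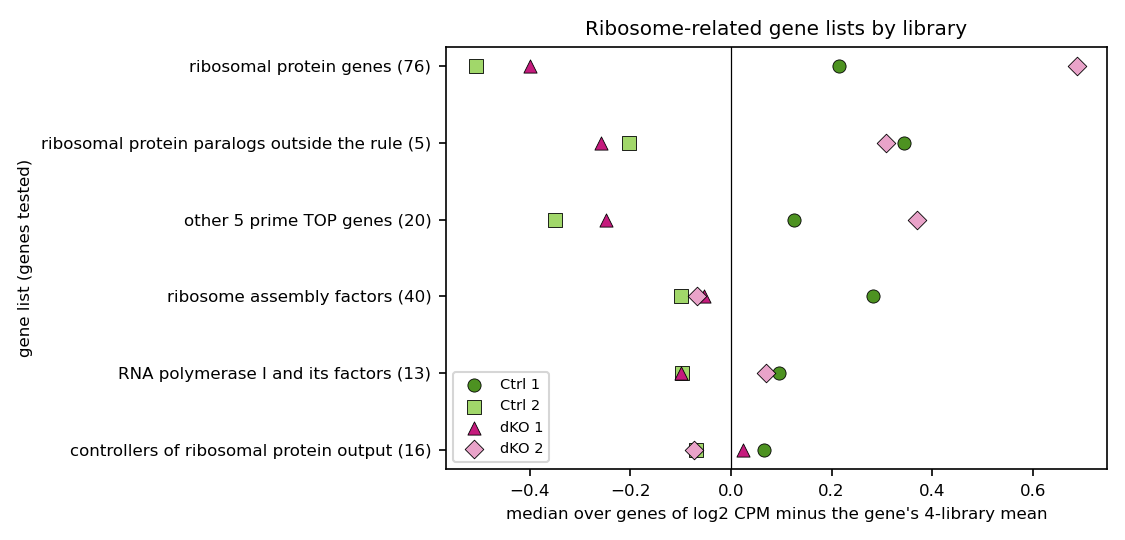
For 6 gene lists (rows, with the number of genes tested), each symbol is 1 library and the horizontal axis is the median over the list of log2 CPM minus the gene's mean over the 4 libraries. The medians of the ribosomal protein genes and of the other 5 prime TOP genes share the order dKO 2, Ctrl 1, dKO 1, Ctrl 2, from 0.69 to -0.51 and from 0.37 to -0.35. Ctrl 1 and dKO 2 also lie above Ctrl 2 and dKO 1 in 2 other lists. These are the paralogs outside the rule (0.34 and 0.31 against -0.20 and -0.26) and the RNA polymerase I factors (0.10 and 0.07 against -0.10 and -0.10).

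Markers of other marrow cells were summed by library, since RNA of other cells could be in a sort. The 11 T cell markers, all detected, summed to 321 and 333 CPM in Ctrl against 160 and 162 CPM in dKO, and 2 of them (Cd3e and Trac) were called lower in dKO. The 7 markers of plasmacytoid dendritic cells summed to 975 and 1094 CPM in Ctrl against 578 and 583 CPM in dKO, where Irf8 was called lower. Irf8 alone made up 807 and 903 CPM of the Ctrl sums and 441 and 428 CPM of the dKO sums. Tcf4 and Siglech of the same list had log2 fold changes of 0.03 and -0.24. Those of Bst2, Pacsin1, Ly6d and Ccr9 were -0.72, -1.05, -1.01 and -3.25. Ccr9 had low levels, 0.764 and 2.32 CPM in Ctrl. Both dKO libraries lay below both Ctrl libraries in 4 of the 7 markers, against 19.9% of all tested genes. The neutrophil markers summed to 2253, 2906, 1441 and 2337 CPM in Ctrl 1, Ctrl 2, dKO 1 and dKO 2. In 3 of these 12 both dKO libraries lay below both Ctrl libraries, against 19.9% of all tested genes. They were Mpo, Elane and Prtn3, with log2 fold changes of -1.97, -1.99 and -1.75, while the list median was -0.19. B cell markers summed to 132, 279, 123 and 156 CPM in the same libraries. None of these sums had the order of the ribosomal protein genes. The share of reads outside genes was 18.1%, 21.5%, 23.8% and 24.3% in the same order of libraries, and its part in the result was not tested.

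The authors deposited 2 quantifications of the same libraries, whole-number counts and RSEM expected counts, and these diverged for several members with near-identical copies. Over 9375 genes with more than 50 expected counts in every library, the whole-number count was a median of 2.06 times the expected count. The median over the members was 2.17, and 59 of 76 lay between 1.5 and 3, with 15 above and 2 below. A search of GENCODE M21 transcripts found 580 copies of the members' coding sequences at 95% identity or more over at least 50% of their length. Of these, 555 are processed pseudogenes, and 73 of 76 members have at least 1.

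The highest ratios among members with a mean of at least 50 expected counts were those of Rpl15 (13.6), Rps6 (10.6), Rpl12 (7.79) and Rpl10 (5.87), and in these the expected counts lay mostly in a copy. Rps6 (chr4:86854660-86857412, minus strand, GRCm38), the protein phosphorylated by S6 kinase, shows it. It was given 42896, 27716, 23670 and 50686 whole-number counts in Ctrl 1, Ctrl 2, dKO 1 and dKO 2, but 3212, 2142, 3149 and 5116 expected counts. Its processed pseudogene Rps6-ps4, listed as Gm13654 and lying on chromosome 2, was given 20119, 13020, 10134 and 23108 expected counts and only 1384, 730, 1178 and 1328 whole-number counts. Rps6-ps1, on chromosome 15, had at most 7 expected counts in a library. The stretch of coding bases 208 to 297, from GENCODE M21 transcripts, is shown 5′ to 3′. It tells Rps6-ps1, but not Rps6-ps4, apart from Rps6: capitals mark bases that differ from Rps6.
Rps6: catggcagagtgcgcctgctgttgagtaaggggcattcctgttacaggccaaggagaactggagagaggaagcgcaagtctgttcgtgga
Rps6-ps4: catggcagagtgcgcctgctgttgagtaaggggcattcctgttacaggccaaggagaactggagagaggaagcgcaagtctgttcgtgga
Rps6-ps1: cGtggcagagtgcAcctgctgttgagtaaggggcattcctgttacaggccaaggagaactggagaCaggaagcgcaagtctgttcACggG

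Rps6-ps4 is identical to Rps6 over all 750 coding bases, while Rps6-ps1 differs at 6 bases of this stretch. Adding the copies to the gene brought the ratio of Rps6 to 1.88, of Rpl15 to 1.73, of Rpl12 to 1.99 and of Rpl10 to 1.94, near the median of all genes. For Rpl15 the expected counts of the identical Rpl15-ps3 were 8591, 5674, 4698 and 9264, against 1 whole-number count over the 4 libraries. Rpl10-ps1 was likewise given 8672, 4832, 3436 and 8684 expected counts and 1 whole-number count. Why a read was given to the gene in one table and to the copy in the other was not tested.

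The fold change of such genes depended on the table. The log2 fold change of Rps6 was 0.20 ± 0.36 (SE) from whole-number counts and 0.78 ± 0.28 from expected counts, where its adjusted p was 0.353 by edgeR. From group means of expected counts scaled to each library total, it was 0.79 for Rps6 alone and 0.28 once its copies were added. Rpl10 moved from -0.01 to 0.30 between the tables, and its expected counts with copies gave 0.04. For Rpl12 the values were 0.04 and 0.23, and for Rpl15 0.08 and 0.01. Over all members the tables ranked the fold changes similarly (Spearman 0.77 over 75 genes, a description over values from the same libraries). With expected counts the median was 0.37, 73 of 75 were above 0 and 0 of 75 passed, against 0.995% of all genes.

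At the low end of the ratios stood Rpl23a (0.199) and Rpl35 (0.890), then Rpl5 (1.79) and Rps2 (1.84). Rpl23a was given 399, 177, 251 and 544 whole-number counts and 2139, 1156, 987 and 2623 expected counts. Its copies held 81.5% of the whole-number counts of gene and copies together, most of them in the processed pseudogene Gm3940 (5151, against 1371 for Rpl23a, over the 4 libraries), but 8.44% of the expected counts. Adding the copies brought the ratio of Rpl23a to 0.983 and that of Rpl35 to 1.10. Whole-number counts of Rpl23a with its copies, per library total, were 41.8 and 45.6 CPM in Ctrl against 62.1 and 82.3 CPM in dKO, so that dKO 1 then stood above both Ctrl libraries. Gm3940 itself was given 824 and 1186 counts in Ctrl against 1513 and 1628 in dKO, an order unlike that of Rpl23a. It aligns to 324 of the 471 coding bases, and whether its counts are reads of Rpl23a was not tested. In GENCODE M21, 506 of the 847 exon bases of Rpl23a (59.7%) overlap exons of Tlcd1 on the opposite strand, and 821 of the 1241 exon bases of Rpl35 (66.2%) overlap Wdr38 on the opposite strand. The strand setting of the counting is not given in the sources used here, so the whole-number values of Rpl23a and Rpl35 are uncertain, and the parts of the copies and of the overlap were not tested. Rpl35 was at 30.3 and 19.1 CPM in Ctrl against 19.1 and 38.4 CPM in dKO, and in both genes, with or without copies, dKO 2 was the highest library in either table.

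**Figure D5:**
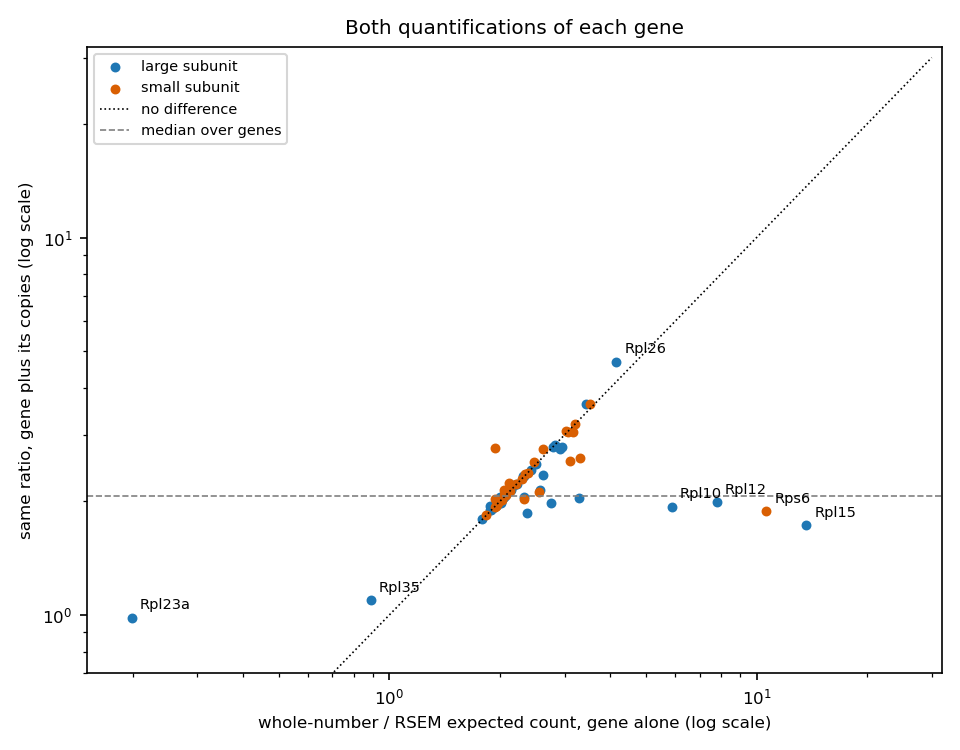
For 75 of the 76 genes, the horizontal axis is the ratio of whole-number to RSEM expected counts over 4 libraries and the vertical axis the same ratio after adding the gene's copies, both on log scales; the dotted line marks no difference and the dashed line the median over genes (2.06). Of the genes shown, Rpl10, Rpl12, Rps6 and Rpl15 drop to near the dashed line once copies are added.

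The row labelled Rpl24 needs care. GENCODE M21 gives its Ensembl identifier to Zbtb11, a neighbouring gene, and the deposited tables list transcripts of both under that row. Its levels of 162 and 104 CPM in Ctrl against 127 and 180 CPM in dKO are therefore those of the pair. Without it, the median log2 fold change of the members was 0.34.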

How the data were processed

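The authors deposited, per library, whole-number counts per gene and an RSEM table with expected counts, TPM, FPKM and lengths, per the file headers. The submitters' processing notes name Trimmomatic 0.36, TopHat2 2.1.1, RSEM 1.3.0, HTSeq 0.6.1, DESeq2 1.32.0 and build mm9. For settings and annotation release, the sources used here give nothing. The deposited FPKM values were not used, and the deposited TPM values served for levels only.

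Rows that name no gene (ambiguous reads were 2.20% to 2.34%) were left out. Counts were scaled by TMM, filtered at a minimum count of 10 and tested with edgeR 4.0.16 (robust quasi-likelihood F test, R 4.3.3), adjusted by Benjamini-Hochberg over all tested genes at 0.05. SE was taken as |log2 fold change| over the root of F. Log2 CPM used a prior count of 2. Expected counts were rounded before testing. Simulated counts, with 200 genes changed, served to check it. Alternatives were other scalings, filters, DESeq2 1.42.0, limma-voom 3.58.1, RSEM, a replicate block and leaving out libraries.

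Copies came from blastn 2.17.0 of the longest reading frame of each member. Genes whose exons exceed 3 times the coding length, or that overlap the member, were left out. Positions are GRCm38 (GENCODE M21), not the build of the counts. Members were matched to RefSeq promoters by symbol, Rps3a as Rps3a1.

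The members and gene lists were chosen with earlier results of these data known. Genes were named by rule: any that passed, the 8 highest and 8 lowest fold changes, the 5 highest and 5 lowest levels, the 4 highest and 4 lowest count ratios, members of known roles, X-linked members, GABP subunits, ribosomal genes outside the rule, and up to 2 genes of each other list. Lists of monocyte, erythroid, basophil, progenitor and innate lymphoid cell markers were also read. The values of 1 member, which counts in all summaries but is left off the figures that name genes, and of 1 ribosomal gene outside the rule are not reported here.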

Additional observations from a re-analysis of the deposited data

How the results depend on the processing

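No member was called under the other scalings (87, 86, 103 and 85 genes called in all with DESeq2 size factors, upper-quartile factors, total counts, and TMM without the members), a stricter filter (147), limma-voom (91), edgeR without robust fitting (84), expected counts (123), the block, an adjusted p of 0.10, or without the Rpl24 row or the 4 members whose copies hold most expected counts. Members called higher were 2 without a filter (559 genes called in all) and 1 with DESeq2 (398), and members called lower were 0 throughout. The cause was not tested. From TMM to total counts the median of all genes moved from 0.01 to 0.05. No symbol had more than 1 row, so summing rows was not run.

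The replicate numbers were not treated as pairs in the main fit. Deviations of same-numbered libraries correlated at -0.05 over all tested genes and -0.21 over the members. With 2 libraries per group this is a single contrast, so it cannot show whether same-numbered libraries were prepared together. With the replicate block 100 genes were called and the members' median was 0.29, and Rpl18 turned to -0.010.

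With 1 library left out, a lone library is assumed to vary like the others. Members called higher ranged from 0 to 1, the median log2 fold change from -0.28 to 0.80, the large subunit median from -0.27 to 0.80, the small subunit median from -0.31 to 0.82, their difference from -0.041 to 0.040, and positive members from 20 to 76. Leaving out 1 library in turn changed the sign of 28 of 36 named members. Their log2 fold changes ranged from -0.65 to 0.48 for Rpl10, -0.29 to 0.88 for Rpl11, -0.49 to 0.60 for Rpl12, -0.49 to 0.49 for Rpl15, -0.68 to 0.60 for Rpl18, -0.40 to 0.88 for Rpl22, -0.13 to 1.27 for Rpl23a, -0.077 to 1.199 for Rpl30, -0.11 to 1.02 for Rpl31, -0.37 to 0.64 for Rpl35. Others ranged from -0.68 to 1.22 for Rpl36a, -0.21 to 0.66 for Rpl4, -0.51 to 0.43 for Rpl5, -0.74 to 0.45 for Rpl7, -0.39 to 0.61 for Rplp0, -0.27 to 1.03 for Rplp1, -0.30 to 0.86 for Rplp2, -0.39 to 0.92 for Rps14, -0.49 to 0.40 for Rps19, -0.31 to 0.81 for Rps2. The last ranged from -0.46 to 1.08 for Rps21, -0.50 to 0.81 for Rps27a, -0.35 to 0.80 for Rps3, -0.36 to 0.78 for Rps3a, -0.72 to 0.75 for Rps4x, -0.51 to 0.68 for Rps6, -0.43 to 0.67 for Rps9, -0.38 to 1.14 for Rpsa. Rpl28, Rpl38, Rpl39, Rpl8, Rps15, Rps27, Rps28 and Rps7 kept their sign.

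Among members near 0, Rpl10 turned to 0.0023 with upper-quartile factors, 0.021 with total counts and 0.30 with expected counts, and Rpl7 to 0.0034 with total counts and 0.0062 with expected counts. Rpl18 turned to -0.019 and Rpl5 to -0.0049 with limma-voom, and Rps21 to -0.44 with expected counts. Counts under 50 in at least 1 library, as for Rpl38, Rpl39 and Rps21, limit precision.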

Other observations

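Shorter transcripts had higher median fold changes, both among the members and among all genes. The 12 members with a mean transcript length under 500 bases had a median log2 fold change of 0.52, the 22 of 500 to 700 bases 0.39, the 20 of 700 to 900 bases 0.32 and the 22 over 900 bases 0.30. Over all tested genes the same length classes gave 0.24, 0.10, 0.07 and 0.0028. The Spearman correlation of length and fold change was -0.31 over the 76 members and -0.09 over the 13904 genes, a description over genes that share the 4 libraries. The shortest members held the same order at the top and bottom, with median deviations of 0.20 and -0.62 in Ctrl against -0.22 and 0.79 in dKO. Over all tested genes of 500 to 700 bases they were 0.07 and -0.13 in Ctrl against -0.04 and 0.20 in dKO. For those of 700 to 900 bases they were 0.07 and -0.08 against -0.05 and 0.13. Both classes had the members' order, while genes under 500 bases did not (-0.08 and -0.05 against 0.13 and 0.17).

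Summed marker levels were 3350 and 3680.0 CPM in Ctrl against 3729 and 4326 CPM in dKO for monocytes or macrophages. Most of this was Ccr2 (2065 and 2173 against 2454 and 2607 CPM) and Lyz2 (1168 and 1338 against 1160 and 1527 CPM). Log2 fold changes were above 0 in 6 of the 9 genes tested. Erythroid markers summed to 1166 and 1355 CPM in Ctrl against 847 and 1171 CPM in dKO. Car2 made up 756 and 758 against 542 and 622 CPM, and 1 of 11 genes was above 0. Markers of basophils or mast cells summed to 15.5 and 27.0 CPM in Ctrl against 17.3 and 36.4 CPM in dKO. Those of progenitors were 86.6 and 119 CPM in Ctrl against 101 and 93.0 CPM in dKO, and those of innate lymphoid cells 459 and 596 CPM in Ctrl against 462 and 437 CPM in dKO.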
